A study of Homo sapiens with 4 samples.

Results

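The TCA cycle and mitochondrial fuel oxidation genes are 37 nuclear genes for the enzymes and carriers that bring pyruvate into the mitochondrion, turn the tricarboxylic acid (TCA) cycle and break down fatty acids. They were taken from a fixed list of symbols, and each of the 37 symbols matched 1 Ensembl identifier among the 60671 in the deposited tables. The cells were 22RV1 and PC3, both established human prostate carcinoma lines, infected with a lentiviral PLKO.1 vector that carried a short hairpin RNA against the RNA helicase DDX52 (shDDX52) or a control hairpin (shCON), and selected with puromycin. With 1 library for each of the 4 conditions, no difference below has a replicate check or a p-value. With 1 hairpin against DDX52 its effect on other transcripts cannot be told apart from the loss of DDX52. The question was what the loss of DDX52 changed in the transcriptome of each line.

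Pyruvate made by glycolysis crosses the inner mitochondrial membrane through the mitochondrial pyruvate carrier. The pyruvate dehydrogenase complex then oxidizes it to acetyl-CoA, while pyruvate carboxylase turns it into oxaloacetate. Citrate synthase joins acetyl-CoA and oxaloacetate, and the cycle that follows yields NADH and carbon skeletons for synthesis. Fatty acids enter as carnitine esters and are shortened by beta-oxidation, with electrons passed on by the electron transfer flavoprotein. Normal prostate epithelium is known for secreting citrate, whereas prostate carcinoma cells oxidize it and are known to draw on fatty acid oxidation.

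DDX52 itself was at 4.88 TPM with shCON and 1.2 TPM with shDDX52 in 22RV1, and at 9.20 and 2.07 TPM in PC3. Genes of the mitochondrial genome held between 8.10% and 13.0% of the TPM of a library, with the larger share in the shDDX52 library of each line, and nuclear rRNA genes held between 0.0872% and 3.13%, with the highest share in PC3 shDDX52. TPM is a length-corrected share of a fixed total of transcripts, so a larger class lowers all other values of its library. Sequencing depth is not kept in TPM, and the precision of a single value is therefore unknown. Of the androgen-responsive luminal markers, FKBP5 was at 108, 45.7, 8.57 and 9.31 TPM, TMPRSS2 at 4.82, 4.35, 2.94 and 2.44 TPM, KLK3 at 6.84, 4.51, 0 and 0 TPM and KLK2 at 32.6, 23.1, 0 and 0 TPM, 22RV1 first and shCON before shDDX52. These 4 were lower with shDDX52 in 22RV1, and KLK3 and KLK2 were listed at 0 in PC3. The mesenchymal-type markers VIM, CAV1, CAV2, AXL and CD44 summed to 26.0 and 13.1 TPM in 22RV1 and to 822 and 973 TPM in PC3, shCON first. In PC3, CD44, VIM and AXL were higher with shDDX52, whereas CAV1 went from 162 to 130.2 TPM and CAV2 from 44.1 to 33.0 TPM. In 22RV1, CAV1, CAV2 and AXL were under 1 TPM in both libraries, and the part of these markers in the results below was not tested.

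The 37 genes together made up 0.545% and 0.541% of the TPM of the 22RV1 libraries and 0.371% and 0.332% of the PC3 libraries, shCON first. Their median level was 74.8, 61.0, 52.7 and 41.6 TPM in the same order, against 9.73 to 10.9 TPM for all genes with at least 1 TPM in a library. The most abundant in every library was ETFB, the beta subunit of the electron transfer flavoprotein, at 732, 840.5, 561 and 429 TPM. It was highest in 22RV1 shDDX52 and lowest in PC3 shDDX52. The least abundant was ME1, the cytosolic malic enzyme, in the 22RV1 libraries, MPC1, a subunit of the pyruvate carrier, in PC3 shCON and PC, pyruvate carboxylase, in PC3 shDDX52.

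**Figure D1:**
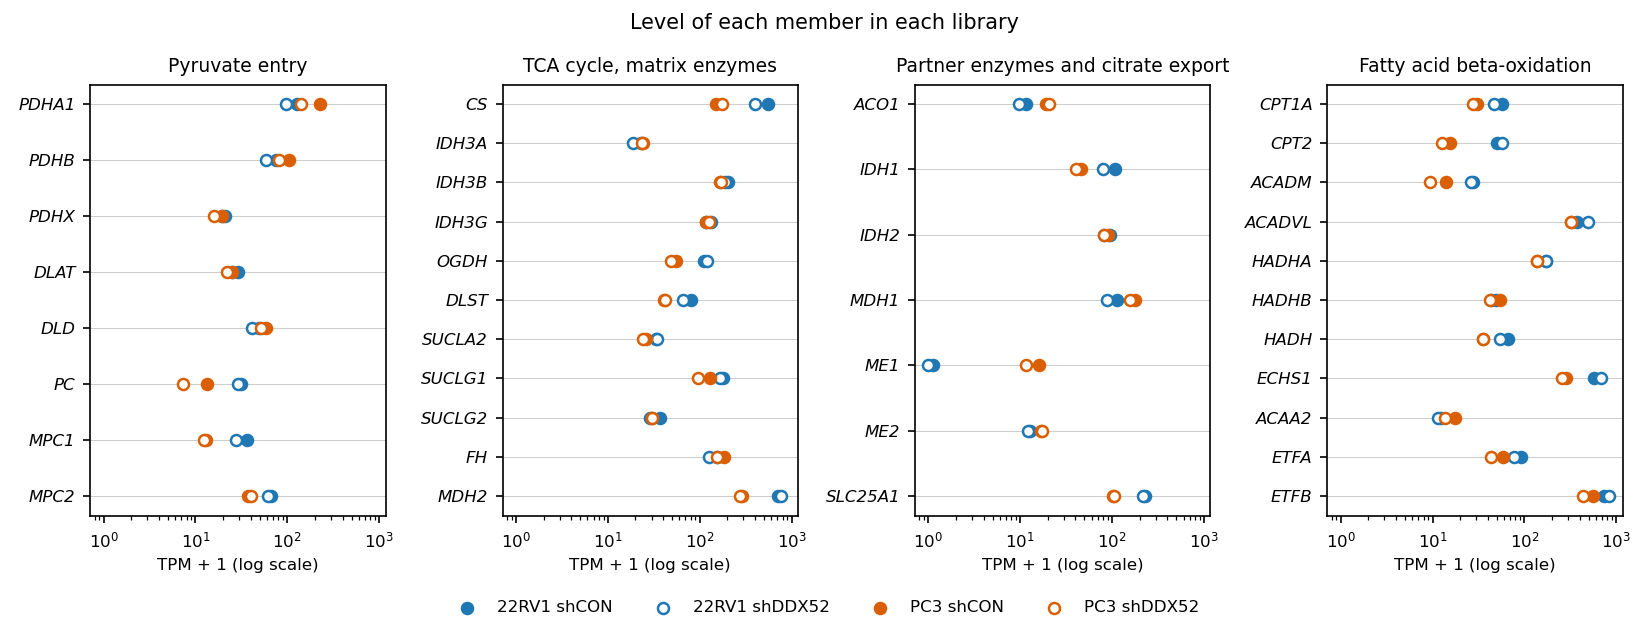
Level of each of the 37 genes in each library, on a log axis of TPM + 1, by role. Filled points are shCON and open points shDDX52, in blue for 22RV1 and orange for PC3. ME1 lies near 0 TPM in 22RV1 and at 10.5 to 15.1 TPM in PC3, and ETFB lies highest in every library.

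Each shDDX52 library was set against the control of its line by a log2 ratio, log2((TPM shDDX52 + 1) / (TPM shCON + 1)). Genes were used in a line where one of its libraries held 1 TPM or more. In 22RV1, 36 of the 37 genes passed this filter, and ME1 did not. Of these 36, 28 were lower and 8 higher with shDDX52, a median log2 ratio of −0.14 in a range from −0.45 to 0.42. Among all 14438 genes used in 22RV1, 58.8% were lower, 40.9% were higher and the median was −0.076. A change of at least 1.5-fold was seen in 0 of the 36 genes in either direction, whereas 8.47% of all genes were lower and 5.61% higher by that much. The differences of the 36 genes in 22RV1 were therefore small. All genes include many of low level, and among genes of a level like that of the members the shares were 4.39% and 2.23%. Centring on the median of all genes left 26 lower and 10 higher, with a median of −0.066. Once each log2 ratio was instead taken relative to genes with a like length and GC content of the transcript, 18 genes were lower and 18 higher, with a median of −0.012.

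In PC3, all 37 genes passed the filter, and 28 were lower and 9 higher with shDDX52. Their median log2 ratio was −0.16, in a range from −0.87 to 0.22, whereas 53.5% of the 14262 genes used in PC3 were lower, 46.3% were higher and the median of all was −0.036. At least 1.5-fold lower were 3 genes, PC, PDHA1 and ACADM, which is 8.11% of the 37 beside 9.84% of all genes. None of the 37 was at least 1.5-fold higher, beside 8.95% of all genes. A change of 2-fold was reached by 0 of the 37 genes in either line, where 2.86% of all genes were 2-fold lower and 2.24% 2-fold higher in 22RV1, and 3.44% and 2.86% in PC3. The size of the median in PC3 depended on the scaling, while it stayed below 0. When TPM was recomputed over nuclear protein-coding genes, the median of all genes moved from −0.036 to 0.087 and that of the 37 genes from −0.16 to −0.034, with 21 lower and 16 higher. Relative to the median of all genes, the 37 genes lay at −0.13 before and at −0.12 after, and centring on that median left 24 lower and 13 higher.

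**Figure D2:**
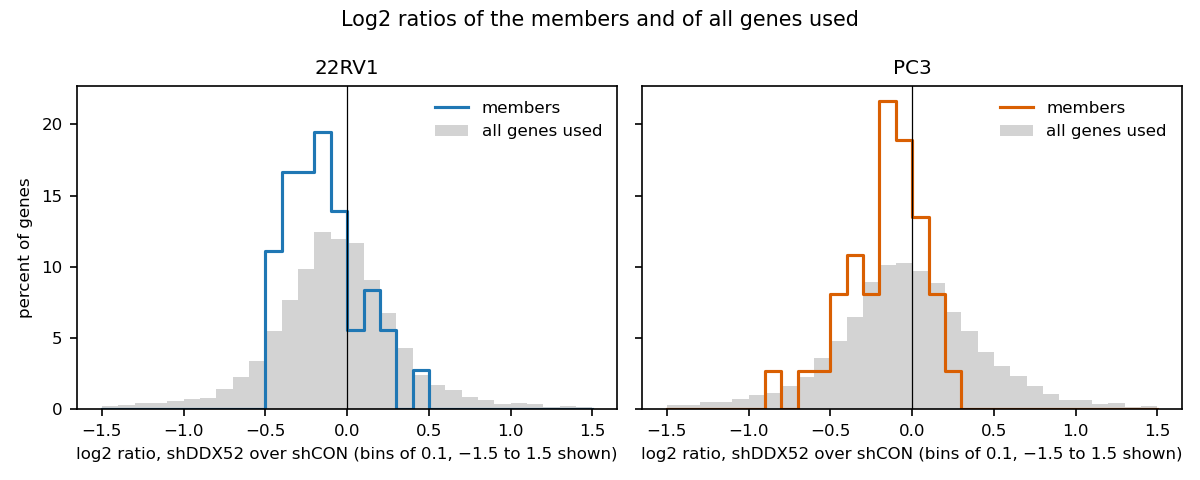
Share of genes in each bin of 0.1 of the log2 ratio, for the members (line) and for all genes used (grey bars), in 22RV1 and PC3. The members lie between −0.45 and 0.42 in 22RV1 and between −0.87 and 0.22 in PC3, while all genes spread more widely on both sides. Values beyond −1.5 and 1.5 are not drawn.

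Genes of low abundance vary more between libraries, and most of the 37 are abundant. Among genes with a mean of at least 10 TPM and up to that of the highest member, 58.0% of 6645 were lower in 22RV1 and 77.1% of the 35 members in that range. In PC3 the shares were 58.6% of 6757 genes and 27 of 36 members. Lower members thus made up a larger share than lower genes of this range in each line, which was not tested. In 22RV1, 4.39% of the genes of this range were at least 1.5-fold lower and 2.23% higher, beside 0 members either way. In PC3 the shares were 6.62% and 5.15%, beside 2 members lower and 0 higher.

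The genes that bring pyruvate into the cycle were lower in nearly every case. With shDDX52, 8 of 8 were lower in 22RV1, with a median log2 ratio of −0.24, and 7 of 8 were lower in PC3, with a median of −0.24. Among all genes used, 58.8% were lower in 22RV1 and 53.5% in PC3. After centring on length and GC content, 5 of the 8 pyruvate entry genes were lower in 22RV1 and 6 of 8 in PC3. PDHA1, the alpha subunit of the E1 component that decarboxylates pyruvate, was at 126 TPM with shCON and 94.8 TPM with shDDX52 in 22RV1, and at 227 and 139.6 TPM in PC3. The PC3 control library was thus the highest of the 4, and PC3 shDDX52 held 61.6% of its level. Its log2 ratio was −0.41 in 22RV1 and −0.70 in PC3, and these ranged from −0.41 to −0.21 and from −0.70 to −0.57 over the alternatives run, short of 1.5-fold at the upper end in PC3. PDHB, the beta subunit of E1, went from 74.8 to 58.2 TPM in 22RV1 and, in PC3, from 104 to 80.2 TPM, with log2 ratios of −0.36 and −0.37. Both E1 subunits were thus lower with shDDX52 in both lines. The TPM of PDHA1 was 1.69 times that of PDHB in 22RV1 shCON and 1.63 times in 22RV1 shDDX52, and it went from 2.18 to 1.74 times in PC3, where PDHA1 lost more than its partner.

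The remaining parts of the complex were less abundant than E1 in every library. DLAT, the E2 core enzyme that hands the acetyl group to CoA, was at 28.1, 24.1, 23.8 and 20.9 TPM in 22RV1 shCON, 22RV1 shDDX52, PC3 shCON and PC3 shDDX52. PDHX, the protein that docks E3 on the core, was at 20.1, 18.2, 18.3 and 14.7 TPM in the same order. DLD, the E3 enzyme shared with other dehydrogenase complexes, was at 48.8, 40.2, 57.7 and 50.3 TPM. All 3 were lower with shDDX52 in both lines, with log2 ratios between −0.29 and −0.13. Over the alternatives run, PDHX reached 0.056 and DLAT 0.0093 in 22RV1, while DLD stayed below 0.

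PC, pyruvate carboxylase, had the largest log2 ratio in size of the 37 genes. It was at 30.5 TPM with shCON and 28.1 TPM with shDDX52 in 22RV1, and at 12.4 and 6.33 TPM in PC3. PC3 shDDX52 thus held 51.1% of its control, a log2 ratio of −0.87, whereas 22RV1 shDDX52 held 92.2%, a log2 ratio of −0.11. The value in PC3 stayed between −0.96 and −0.77 under each alternative run. Both PC3 values are low, and its control level was already below that of both 22RV1 libraries. MPC1 and MPC2 form the mitochondrial pyruvate carrier together. MPC1 was at 35.7 TPM with shCON and 26.6 TPM with shDDX52 in 22RV1, and at 12.0 and 11.3 TPM in PC3, so the larger difference was in 22RV1, with log2 ratios of −0.41 and −0.079. MPC2 went from 65.9 to 61.0 TPM in 22RV1 and, in PC3, from 36.1 to 39.3 TPM, with log2 ratios of −0.11 and 0.12, and was the only gene of this group that was higher in PC3 shDDX52.

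The promoters of the 3 genes past 1.5-fold in PC3 and of PDHB, the partner of PDHA1, are shown. These genes had log2 ratios below 0 in both lines before any centring. For ACADM in 22RV1 the log2 ratio was −0.070, beside a median of −0.076 for all genes, and it reached 0.070 over the alternatives run. Each promoter is the 250 bases before the RefSeq start in GRCh38.p14, written 5′ to 3′ on the strand of the gene. Capitals mark every match to 1 of 5 motifs searched on both strands, which are the E-box (CACGTG) bound by MYC with MAX, the CCAAT box (CCAAT), the palindromic NRF1 site, the half-site of the estrogen-related receptors (AAGGTCA) and the ETS site (CCGGAAG).
PDHA1, chrX:19343677-19343926, plus strand: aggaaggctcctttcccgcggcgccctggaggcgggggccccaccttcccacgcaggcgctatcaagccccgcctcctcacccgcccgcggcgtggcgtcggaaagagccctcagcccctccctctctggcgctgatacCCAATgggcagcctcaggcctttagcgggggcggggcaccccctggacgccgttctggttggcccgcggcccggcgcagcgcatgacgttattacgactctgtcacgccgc
PDHB, chr3:58433833-58434082, minus strand: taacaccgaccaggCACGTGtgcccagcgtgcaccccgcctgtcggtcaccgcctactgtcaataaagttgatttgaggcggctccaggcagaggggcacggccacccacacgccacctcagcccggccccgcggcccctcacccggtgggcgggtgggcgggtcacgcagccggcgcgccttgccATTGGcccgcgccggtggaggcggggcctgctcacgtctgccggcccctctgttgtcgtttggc
PC, chr11:66958384-66958633, minus strand: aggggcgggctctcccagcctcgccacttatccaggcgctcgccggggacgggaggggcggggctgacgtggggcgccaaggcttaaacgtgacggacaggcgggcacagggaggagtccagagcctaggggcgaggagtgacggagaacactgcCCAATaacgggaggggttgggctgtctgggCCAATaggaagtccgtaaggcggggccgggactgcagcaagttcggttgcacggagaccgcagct
ACADM, chr1:75724459-75724708, plus strand: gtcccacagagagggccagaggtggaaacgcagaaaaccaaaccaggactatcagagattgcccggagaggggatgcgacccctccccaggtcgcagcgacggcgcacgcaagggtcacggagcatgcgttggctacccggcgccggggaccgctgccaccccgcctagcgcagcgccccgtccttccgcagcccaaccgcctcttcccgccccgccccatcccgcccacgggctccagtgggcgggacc
PDHA1 holds a CCAAT box 111 bases before the start, PC holds 2, at 95 and 65 bases, and PDHB holds 1 on the other strand, at 64 bases, with an E-box at 236 bases. ACADM holds no match, so these 4 promoters share none of the 5 motifs. In windows of 300 bases, from 250 before to 50 after the start, a CCAAT box was found in 17 of the 36 member promoters in the table and in 35.7% of all 27305 promoters, and the E-box in 1 of 36 and in 7.43%. The NRF1 site was found in 4 of 36 and 6.28% of all, the ETS site in 6 of 36 and 10.7%, and the receptor half-site in 1 of 36 and 3.97%. Among the 15301 promoters of nuclear protein-coding genes, the share was 36.6% for the CCAAT box and 8.87% for the E-box. It was 8.61% for the NRF1 site, 14.4% for the ETS site and 3.12% for the half-site. The promoter of OGDH was not analysed here.

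The TCA cycle enzymes of the matrix were mostly lower in 22RV1 and mixed in PC3, a difference that was not tested. In 22RV1, 8 of 11 were lower with shDDX52, with a median log2 ratio of −0.15, beside 58.8% and −0.076 for all genes. After centring on length and GC content, 7 of 11 were lower there, with a median of −0.054. Of all genes in PC3, 53.5% were lower. Of the 11 matrix genes in PC3, 6 were lower and 5 higher, with a median of −0.028. The count was 3 lower and 8 higher after scaling to nuclear protein-coding genes. CS, citrate synthase, was at 550.5 TPM with shCON and 404 TPM with shDDX52 in 22RV1, and at 149 and 174 TPM in PC3. The 22RV1 control stood well above the other libraries, and the hairpin went with a lower level in 22RV1 and a higher one in PC3. With −0.45 in 22RV1 and 0.22 in PC3, its log2 ratios were the lowest of the 36 genes in the first line and the highest of the 37 in the second, and neither changed sign under the alternatives run. Isocitrate dehydrogenase 3 oxidizes isocitrate with NAD. Its catalytic subunit IDH3A was at 22.3, 17.8, 23.3 and 22.9 TPM in 22RV1 shCON, 22RV1 shDDX52, PC3 shCON and PC3 shDDX52, with log2 ratios of −0.31 and −0.028. Its regulatory subunits were more abundant, IDH3B at 203, 187, 164 and 171 TPM and IDH3G at 131, 118, 115 and 126 TPM in the same order. Both were slightly lower in 22RV1 shDDX52, with log2 ratios of −0.11 and −0.15, and slightly higher in PC3 shDDX52, with 0.065 and 0.13.

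The oxoglutarate dehydrogenase complex converts 2-oxoglutarate to succinyl-CoA. OGDH, its E1 enzyme, went from 109 to 118 TPM in 22RV1 and, in PC3, from 54.8 to 48.2 TPM, with log2 ratios of 0.11 and −0.18. DLST, its E2 enzyme, went from 79.5 to 65.4 TPM in 22RV1 and, in PC3, from 40.2 to 41.2 TPM, with log2 ratios of −0.28 and 0.037. E1 and E2 thus differed in opposite senses, but in PC3 the log2 ratio of DLST was close to 0 and turned to −0.0057 after centring on length and GC content. Succinyl-CoA ligase pairs the shared alpha subunit SUCLG1 with a beta subunit that makes ATP (SUCLA2) or GTP (SUCLG2). SUCLG1 was at 177 TPM with shCON and 167 TPM with shDDX52 in 22RV1, and at 128 and 94.8 TPM in PC3, and its log2 ratio was −0.080 in 22RV1 and −0.43 in PC3, the lowest of the matrix group there. SUCLA2 held 32.7, 33.6, 24.9 and 23.2 TPM and SUCLG2 held 35.8, 27.5, 29.3 and 29.4 TPM, 22RV1 first and shCON before shDDX52. SUCLG2 was lower than its control in 22RV1, with a log2 ratio of −0.37, where SUCLA2 had 0.036, and both lay within 0.1 of 0 in PC3, at −0.097 for SUCLA2 and 0.0067 for SUCLG2. FH, fumarase, was lower in both lines, from 153 to 126 TPM in 22RV1 and, in PC3, from 182 to 155 TPM, with log2 ratios of −0.28 and −0.23. MDH2, which regenerates oxaloacetate in the matrix, was the most abundant gene of this group in every library, at 719, 762, 287 and 275 TPM, with log2 ratios of 0.082 and −0.061.

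**Figure D3:**
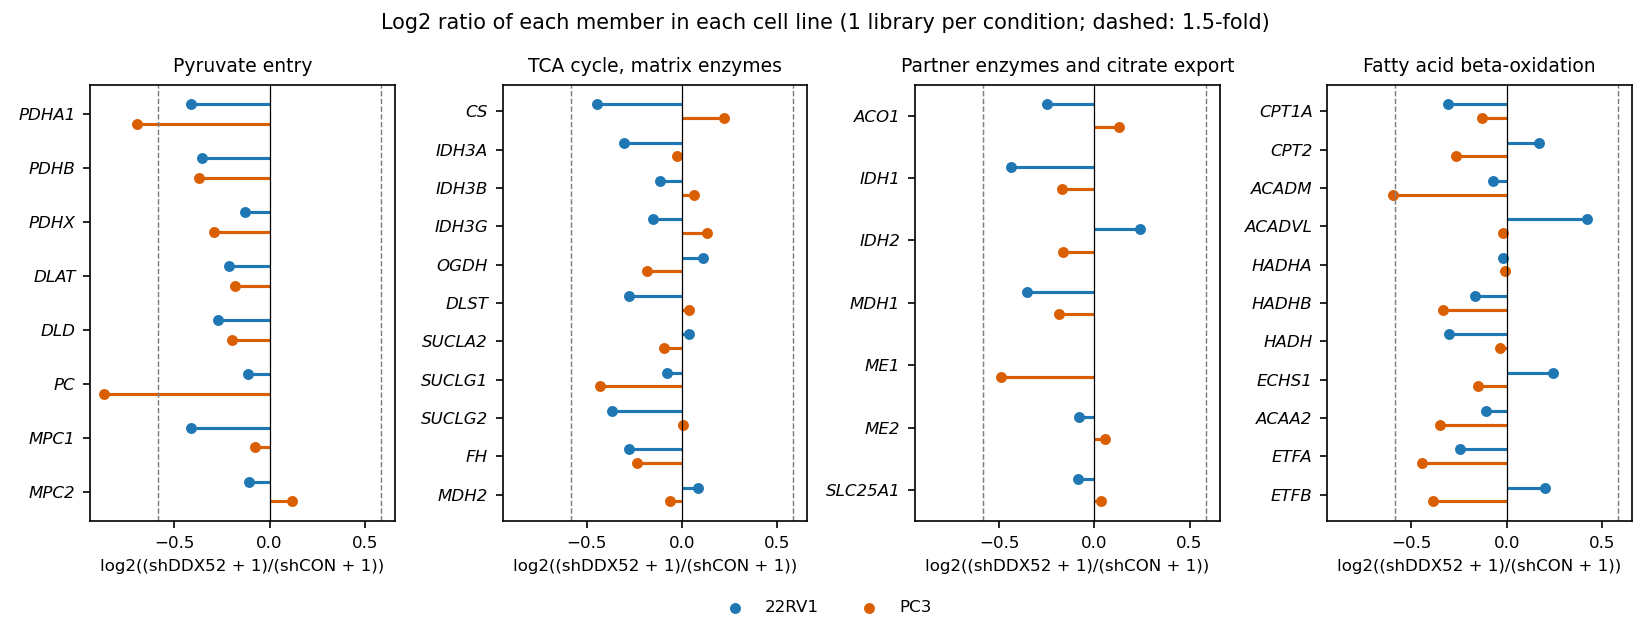
Log2 ratio of each gene in 22RV1 (blue) and PC3 (orange), by role, with 1 library per condition. Dashed lines mark 1.5-fold, which only PC, PDHA1 and ACADM pass, each in PC3 and downward. ME1 in 22RV1 is not drawn because both values are under 1 TPM.

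Several steps of the cycle have partner enzymes outside it, some of them in the cytosol and some that use NADP, and a carrier exports citrate. In this group, 5 of 6 genes were lower in 22RV1 and 4 of 7 in PC3, beside 58.8% and 53.5% of all genes. After centring on length and GC content, 4 of 6 were lower in 22RV1 and 5 of 7 in PC3. IDH1, the cytosolic NADP-linked isocitrate dehydrogenase, was at 108 TPM with shCON and 79.4 TPM with shDDX52 in 22RV1, and at 45.1 and 40.04 TPM in PC3. Its mitochondrial counterpart IDH2 was at 79.9 TPM with shCON and 94.5 TPM with shDDX52 in 22RV1, and at 90.5 and 80.8 TPM in PC3. With shDDX52, IDH1 was lower and IDH2 higher in 22RV1, with log2 ratios of −0.44 and 0.24, so that the ratio of their TPM went from 1.35 to 0.841. In PC3 both were slightly lower, with log2 ratios of −0.17 and −0.16, and the ratio stayed at 0.499 and 0.496. The order of the NADP-linked pair thus turned in 22RV1 and not in PC3, a difference that was not tested.

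MDH1, the cytosolic malate dehydrogenase of the malate-aspartate shuttle, went from 111 to 86.7 TPM in 22RV1 and, in PC3, from 177 to 155 TPM, with log2 ratios of −0.35 and −0.19. The matrix form MDH2 outweighed it in every library, by 6.47 and 8.78 times in 22RV1 and by 1.62 and 1.77 times in PC3, shCON first. ME1, the cytosolic malic enzyme that makes NADPH, was listed at 0.13 and 0 TPM in 22RV1 and at 15.1 and 10.5 TPM in PC3. PC3 cells thus held ME1 mRNA and 22RV1 cells held almost none, and in PC3 its log2 ratio was −0.49. ME2, the mitochondrial malic enzyme, was at 11.9, 11.2, 15.8 and 16.4 TPM and was the steadier of the pair, with log2 ratios of −0.082 and 0.054. ACO1, the cytosolic aconitase that also acts as an iron-regulatory protein, went from 10.6 to 8.76 TPM in 22RV1 and, in PC3, from 18.03 to 19.8 TPM, with log2 ratios of −0.25 and 0.13. SLC25A1, the carrier that exports citrate, was at 228, 214, 103 and 105 TPM in 22RV1 and PC3, shCON before shDDX52, with log2 ratios of −0.088 and 0.037.

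The 11 fatty acid oxidation genes among the members were lower throughout in PC3 and mixed in 22RV1, which was not tested as a difference. In PC3, 11 of 11 were lower with shDDX52, with a median log2 ratio of −0.27, and the count was 8 of 11 after scaling to nuclear protein-coding genes or centring on the median of all genes. In 22RV1, 7 were lower and 4 higher, with a median of −0.070, which is beside the −0.076 of all genes. Centring on length and GC content turned the 22RV1 count to 2 lower and 9 higher, with a median of 0.098, while it left 10 of 11 lower in PC3. Fatty acid oxidation genes outside the members went the other way between the lines. Of 19 used in each line, 16 were lower in 22RV1 and 12 in PC3, with medians of −0.26 and −0.12. Among all genes used, 58.8% were lower in 22RV1 and 53.5% in PC3. CPT1A, the outer-membrane enzyme that makes acylcarnitines and limits the rate of entry, went from 56.4 to 45.4 TPM in 22RV1 and, in PC3, from 29.3 to 26.7 TPM, with log2 ratios of −0.31 and −0.13. CPT2, which reverses that step inside the mitochondrion, was at 49.6 TPM with shCON and 55.9 TPM with shDDX52 in 22RV1, and at 14.3 and 11.7 TPM in PC3. It was slightly higher in 22RV1 shDDX52 and lower in PC3 shDDX52, with log2 ratios of 0.17 and −0.27.

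The acyl-CoA dehydrogenases open each round of beta-oxidation. ACADM, which acts on medium chains, was at 26.7 TPM with shCON and 25.4 TPM with shDDX52 in 22RV1, and at 13.1 and 8.35 TPM in PC3. It was lower in both shDDX52 libraries, but the log2 ratio was −0.070 in 22RV1 and −0.60 in PC3, where the shDDX52 library held 63.5% of the control. This is just past 1.5-fold, a log2 ratio of 0.58 in size, and over the alternatives run it lay between −0.65 and −0.44, so that some left it short of 1.5-fold. The nearest gene inside that limit was ME1. ACADVL, which acts on very long chains, was at 370.2 TPM with shCON and 495 TPM with shDDX52 in 22RV1, and at 321 and 318 TPM in PC3. It had the highest log2 ratio of the 36 genes in 22RV1, 0.42, and almost none in PC3, −0.017. The 2 enzymes thus differed most from their controls in different lines.

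The mitochondrial trifunctional protein joins HADHA and HADHB. HADHA was at 172, 169.9, 136 and 135 TPM and HADHB at 47.6, 42.2, 52.7 and 41.6 TPM, 22RV1 first and shCON before shDDX52. HADHA was near its control, with log2 ratios of −0.019 and −0.0080, and HADHB was lower, with −0.17 and −0.33, so the TPM of HADHA over HADHB went from 3.62 to 4.02 in 22RV1 and, in PC3, from 2.58 to 3.25. HADH, the short-chain hydroxyacyl-CoA dehydrogenase, went from 65.9 to 53.3 TPM in 22RV1 and, in PC3, from 34.9 to 34.1 TPM. ECHS1, the short-chain enoyl-CoA hydratase, was abundant in every library, at 569.8, 674, 284 and 256 TPM, with log2 ratios of 0.24 and −0.15. ACAA2, the thiolase that ends a round, was the least abundant gene of the group in 22RV1 and went from 11.5 to 10.6 TPM in 22RV1 and, in PC3, from 16.4 to 12.7 TPM.

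The electron transfer flavoprotein takes the electrons of these dehydrogenases. ETFA, its alpha subunit, was at 91.0 TPM with shCON and 76.7 TPM with shDDX52 in 22RV1, and at 58.2 and 42.5 TPM in PC3, and was lower with shDDX52 in both lines. ETFB, its beta subunit, was higher in 22RV1 shDDX52 and lower in PC3 shDDX52. The log2 ratios were −0.24 and −0.44 for ETFA and 0.20 and −0.39 for ETFB. Over the alternatives run, ETFA reached 0.0058 in 22RV1, while ETFB kept its sign in both lines. ETFB had the largest TPM difference of the 37 genes in PC3, −132 TPM. ETFDH, which is not among the 37 and passes the electrons on to ubiquinone, was the gene of the wider list furthest down in PC3, at 21.0 TPM with shCON and 15.7 TPM with shDDX52 in 22RV1, and at 15.2 and 7.97 TPM in PC3, with log2 ratios of −0.40 and −0.86.

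Summed levels gave another view, because a few abundant genes lead them. In 22RV1 the 37 genes summed to 5385 TPM in the control and to 5362 TPM after the knockdown, a share of 99.6% that passed above the control under 2 other scalings. The 29 genes that were lower lost 434 TPM together and the 8 that were higher gained 411. The difference was −146 TPM for CS, 125 TPM for ACADVL, 108 TPM for ETFB and 105 TPM for ECHS1. In PC3 the sum went from 3676 to 3268 TPM, 88.9% of the control, with 461 TPM lost and 52.8 gained. The pyruvate entry genes held 81.7% of their summed control level in 22RV1 and 73.8% in PC3. The matrix TCA genes held 91.6% and 96.9%, and the partner genes 90.1% and 92.3%. The fatty acid oxidation genes held 113.5% in 22RV1 and 86.4% in PC3. In TPM as deposited, this group alone thus differed in direction between the lines by its sum. Scaling to nuclear protein-coding genes moved the log2 ratio of the whole sum in PC3 from −0.17 to −0.040. The matrix TCA and partner sums lay at −0.045 and −0.12 in PC3, within the size of that shift, so their direction there depended on the scaling.

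**Figure D4:**
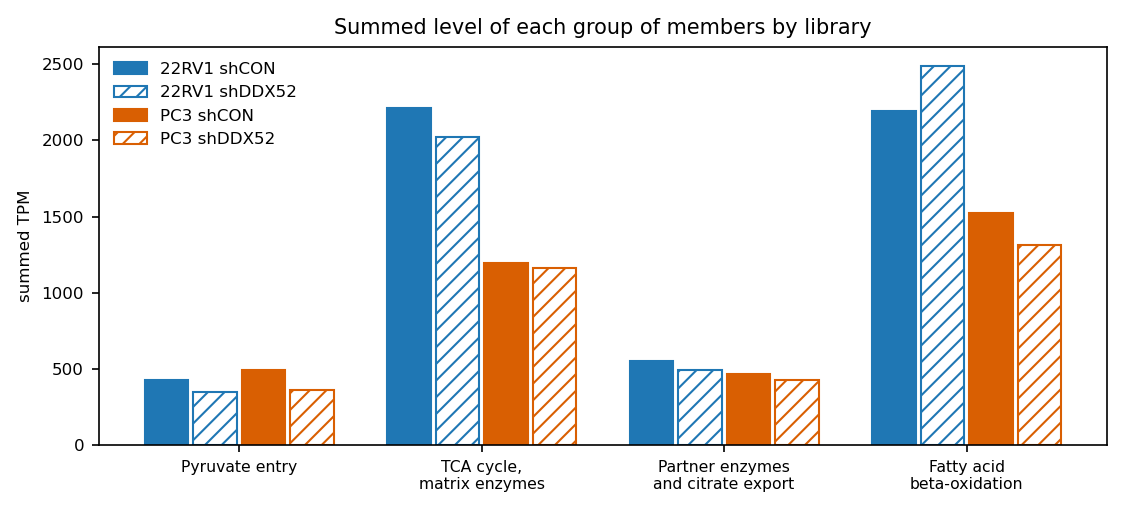
Summed TPM of each group of genes in each library, with filled bars for shCON and hatched bars for shDDX52. The fatty acid oxidation sum is higher with shDDX52 in 22RV1 (2193 to 2490 TPM) and lower in PC3 (1522 to 1316 TPM), and the pyruvate entry sum is lower in both.

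Across the 36 genes used in both lines, 19 were lower with shDDX52 in both, none was higher in both, 9 were lower in 22RV1 and higher in PC3, and 8 the reverse. Of all 12175 genes used in both lines, 3954 (32.5%) were lower in both and 2248 higher in both. A further 3338 were lower in 22RV1 and higher in PC3, and 2600 the reverse. Of the pyruvate entry genes, 7 of 8 were lower in both lines, and of the fatty acid oxidation genes 7 of 11, but only 3 of 11 matrix TCA genes, SUCLG1, FH and IDH3A. Of these matrix genes, FH alone stayed below 0 in both lines under each alternative run. Some genes of the other groups, such as PDHX and HADHB in 22RV1, did not keep their sign either. The size of the log2 ratio in one line gave no guide to its size in the other. Across the 36 genes, Pearson's r was −0.029 and Spearman's rho −0.077, a description over genes that share their 4 libraries.

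The log2 ratios in 22RV1 went with the GC content of the transcripts. Across the 36 genes, Spearman's rho between the log2 ratio and the GC content of the principal transcript was 0.40, and across 11853 nuclear protein-coding genes it was 0.35. The 8 higher genes had a median GC content of 56.1% and the 28 lower ones 45.2%. Of the 18 genes with a GC content over 45.9%, 11 were lower, and of the other 18, 17 were lower, with SUCLA2 as the exception. In PC3 rho was 0.15 across the 37 genes and −0.022 across 11845 nuclear protein-coding genes, where transcript length had a rho of 0.27 and, across the 37 genes, −0.023. These are descriptions over genes of the same libraries, and the part of base composition in the differences was not tested.

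**Figure D5:**
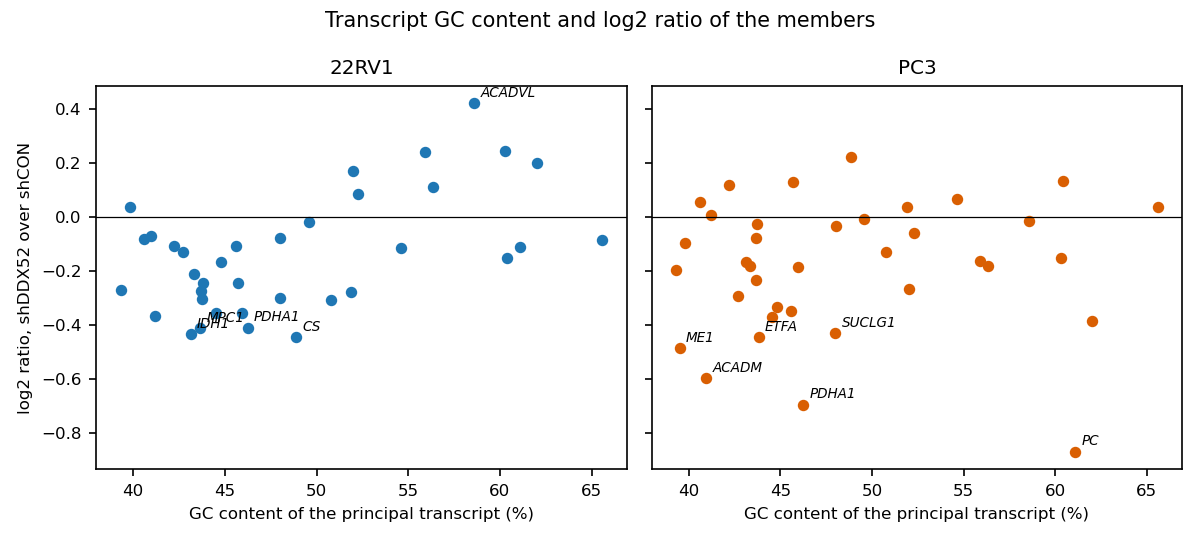
GC content of the principal transcript of each gene (x axis, percent) against its log2 ratio (y axis) in 22RV1 and PC3. In 22RV1 all genes above 0 but SUCLA2 have a GC content over 50%, and in PC3 the points show no such order. Genes with a log2 ratio of at least 0.40 in size are named.

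A wider list of 56 pathway genes was read in the same way. In 22RV1, 52 passed the filter, of which 7 lay below their control by 1.5-fold or more and 1 above it, beside 8.47% and 5.61% of all genes. In PC3, 51 passed, of which 1 lay below and 7 above by that much, beside 9.84% and 8.95%. The kinases PDK1 to PDK4 switch pyruvate dehydrogenase off by phosphorylation, and the phosphatases PDP1 and PDP2 switch it on. PDPR is a regulatory subunit of the phosphatase. The genes PDP1, PDP2 and PDPR were at least 1.5-fold higher in PC3 shDDX52. PDP1 went from 11.1 to 20.2 TPM (log2 ratio 0.81), PDP2 from 2.74 to 5.40 TPM (log2 ratio 0.78) and PDPR from 3.76 to 6.55 TPM (log2 ratio 0.67). PDPR has near-identical copies in the genome, so its value depends on how shared reads were counted, and its log2 ratio was 0.34 after centring on length and GC content. That of PDP2 was then 0.57, also short of 1.5-fold, so that PDP1 alone of the 3 stayed past it under each alternative run. In 22RV1 these genes had log2 ratios between −0.20 and −0.11, and PDK1 was lower there, from 3.27 to 1.80 TPM (log2 ratio −0.61).

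Among the genes that activate and carry fatty acids, ACSL1 and ACSL3, which join long-chain fatty acids to CoA, were at least 1.5-fold lower in 22RV1 shDDX52. ACSL1 went from 12.9 to 6.46 TPM (log2 ratio −0.90) and ACSL3 from 19.6 to 12.1 TPM (log2 ratio −0.65) there. ACSL3 was also lower in PC3, from 46.7 to 31.3 TPM (log2 ratio −0.56), just short of 1.5-fold. ACSL1 was slightly higher in PC3, from 12.7 to 14.6 TPM (log2 ratio 0.19). ACADL, a long-chain acyl-CoA dehydrogenase, went from 2.68 to 1.38 TPM (log2 ratio −0.63) in 22RV1, at a low level. Of the 7 lower genes of the wider list in 22RV1, ACSL3, ACADL, PDK1 and SLC25A13 were short of 1.5-fold after either centring, with log2 ratios of −0.47, −0.44, −0.45 and −0.41 relative to genes of like length and GC content. SLC25A20, the carnitine carrier, was lower in both lines, from 33.2 to 23.3 TPM in 22RV1 and, in PC3, from 17.4 to 12.1 TPM, short of 1.5-fold on this scale. Of the 21 other fatty acid oxidation genes of the wider list, 19 were used in each line. Of these, 16 were lower in 22RV1 and 12 in PC3, with medians of −0.26 and −0.12, beside 58.8% and 53.5% of all genes. Genes that feed or drain the cycle also differed. PCK2, the mitochondrial enzyme that makes phosphoenolpyruvate from oxaloacetate, went from 177 to 93.4 TPM (log2 ratio −0.92) in 22RV1 and from 13.8 to 17.4 TPM (log2 ratio 0.31) in PC3, from a far lower level. SLC25A13, an aspartate-glutamate carrier, went from 30.6 to 19.6 TPM (log2 ratio −0.61) in 22RV1. ACLY, which splits exported citrate to acetyl-CoA in the cytosol, was steady in 22RV1, from 159 to 156 TPM (log2 ratio −0.024), and higher in PC3, from 49.5 to 89.8 TPM (log2 ratio 0.85). GLS2, a glutaminase that feeds glutamate, went from 4.53 to 7.89 TPM (log2 ratio 0.68) in PC3.

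LIPT2, which acts in the lipoate attachment that the E2 enzymes need, went from 0.82 to 5.40 TPM (log2 ratio 1.81) in 22RV1 and from 3.11 to 2.02 TPM (log2 ratio −0.44) in PC3. All 4 of its values are low. PPARA, a nuclear receptor that drives fatty acid oxidation genes, differed in opposite senses, from 5.51 to 2.36 TPM (log2 ratio −0.95) in 22RV1 and from 2.22 to 5.64 TPM (log2 ratio 1.04) in PC3. PPARD, its relative, went from 9.89 to 12.0 TPM (log2 ratio 0.25) in 22RV1 and from 18.4 to 31.1 TPM (log2 ratio 0.72) in PC3. PPARGC1A, the coactivator of mitochondrial biogenesis, was listed at 0.63 and 0.05 TPM in 22RV1 and at 0 in both PC3 libraries. The succinate dehydrogenase subunits and mitochondrial aconitase, which complete the cycle, reached 1.5-fold in none of 5 genes in either line. The closest was SDHB, from 198 to 133 TPM (log2 ratio −0.57) in PC3.

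The lines also differed before the knockdown. The tables were normalized separately, so these levels are set side by side without a test. Of the 37 genes, 25 were lower and 12 higher in PC3 shCON than in 22RV1 shCON, with a median log2 difference of −0.34, beside 52.3% lower, 47.6% higher and a median of −0.067 over all 15727 genes used. At least 1.5-fold lower in PC3 were 15 genes and higher 4, beside 32.2% and 29.3% of all. At least 2-fold lower in PC3 were 7 genes, beside 21.3% of all, namely CS, CPT2, MPC1, MDH2, IDH1, PC and SLC25A1. Their log2 differences were −1.88, −1.72, −1.49, −1.32, −1.24, −1.23 and −1.14. At least 2-fold higher was 1 gene, ME1, with a log2 difference of 3.83, beside 19.9% of all. PDHA1 followed with 0.84 and ACO1 with 0.72. CS, whose level was highest in 22RV1 shCON, and ME1, which was near 0 in both 22RV1 libraries, thus marked the widest differences between the lines, each larger than any difference between hairpins among the 37 genes.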

How the data were processed

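Total RNA of 4 conditions was sequenced with an Illumina TruSeq kit, with 1 library each. Read mapping was done by the authors with a free cloud platform of the sequencing company, and the deposited values are TPM per Ensembl gene. The submitters' processing notes name CASAVA, HISAT2 and hg19, and the quantification program, annotation release and filters are not given in the sources used here. GENCODE 29 on GRCh38 lists 58453 of the 60671 identifiers, so the build behind the values was not settled, and promoter positions refer to RefSeq on GRCh38.p14. TPM keeps no depth, so no interval and no test was made.

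The log2 ratio used a pseudocount of 1, which understates changes of low genes, over genes that held 1 TPM or more in one library of the line. A gene was called at 1.5-fold. GC content and length came from the APPRIS principal transcript in GENCODE 29, and centring used 10 by 10 bins. Gene names came from a table of identifiers, and 36 of 37 promoters were found in the RefSeq table. Values in all libraries are given for members past 1.5-fold, those furthest up or down, enzyme pairs, and the most and least abundant gene of each group. The genes and lists were chosen with earlier results of these data known. The summed level of the luminal markers is not reported here. The calculation was tested on simulated data. Computing used pandas 2.3.3, numpy 2.4.6 and scipy 1.17.1 under Python 3.11.15, with plots from matplotlib 3.10.9.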

Additional observations from a re-analysis of the deposited data

Results flagged for a closer look

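Of the 37 genes, 17 had log2 ratios of opposite sign in the 2 lines, with 1 library per condition. Opposite signs were also common among all 12175 genes used in both lines. Of these, 3338 were lower in 22RV1 and higher in PC3 and 2600 the reverse, beside 9 and 8 of 36 members. The differences between the lines were not tested. Of the 17, those below 0 in 22RV1 and above 0 in PC3 were MPC2, CS, IDH3B, IDH3G, DLST, SUCLG2, ACO1, ME2 and SLC25A1. The log2 ratio in 22RV1 minus that in PC3 was −0.23 for MPC2, −0.66 for CS, −0.18 for IDH3B, −0.28 for IDH3G, −0.32 for DLST, −0.37 for SUCLG2, −0.37 for ACO1, −0.14 for ME2 and −0.13 for SLC25A1. Those above 0 in 22RV1 and below 0 in PC3 were OGDH, SUCLA2, MDH2, IDH2, CPT2, ACADVL, ECHS1 and ETFB, with differences of 0.29 for OGDH, 0.13 for SUCLA2, 0.14 for MDH2, 0.40 for IDH2, 0.44 for CPT2, 0.44 for ACADVL, 0.39 for ECHS1 and 0.59 for ETFB. CS and ETFB thus differed most. Several of these log2 ratios lie close to 0, and for SUCLA2, SUCLG2, ME2, SLC25A1, ACADVL and DLST 1 of the 2 is under 0.06 in size. The sign in 22RV1 did not hold under each alternative run for MPC2 and ME2. Nor did the sign in PC3 for DLST, SUCLA2, MDH2, ACO1 and ACADVL.

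Among the wider list of 56 genes, 9 that reached 1.5-fold in at least 1 line also had opposite signs, again untested. The log2 ratio in 22RV1 minus that in PC3 was −0.67 for PDK1, −1.01 for PDP1, −0.88 for PDP2, −0.80 for PDPR, 2.26 for LIPT2, −1.09 for ACSL1, −1.23 for PCK2, −0.87 for ACLY and −2.00 for PPARA. LIPT2 and PPARA differed most, both at low TPM.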

How the results depend on the processing

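The 9 summary values were recomputed under those of the 7 alternatives that apply to each, 49 values in all, of which 43 kept the direction and moved by less than 0.1 (log2) or, for counts, by no more than 1.5 times. The count of genes at least 1.5-fold lower in PC3 was 2 under each centring, where ACADM was lost. The summed level of the 37 genes in 22RV1, a log2 ratio of −0.0063, turned to 0.011 with nuclear protein-coding scaling and to 0.058 when genes of the mitochondrial genome and the 20 highest genes were left out of the total, so it has no stable direction. Nuclear protein-coding scaling in PC3 moved the median to −0.034, the summed level from −0.17 to −0.040 and the count of genes at least 1.5-fold lower from 3 to 1, which is PC. Centring on transcript length and GC content, chosen after seeing the data, moved the median in 22RV1 to −0.012. Over the alternatives the median ranged between −0.15 and −0.012 for 22RV1 and between −0.16 and −0.034 for PC3, and the difference between the control libraries from −0.40 to −0.31. Of the 28 genes lower in 22RV1, 18 stayed below 0 under each alternative, and of the 28 in PC3, 21 did. Of the higher genes, 8 of 8 in 22RV1 and 7 of 9 in PC3 stayed above 0. Causes of these changes were not tested. No paired analysis was possible because only 1 library was made per condition. Depth is unknown, so the precision of low values such as those of PC, MPC1 and ACADM in PC3 is unknown.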
